A study of Caenorhabditis elegans with 12 samples.

Results

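The UDP-glucuronosyltransferase genes of Caenorhabditis elegans, named ugt and numbered, were taken from a count table of whole-worm RNA. A gene was a member when its WormBase public name was ugt- followed by a number and the annotation called it protein-coding. This gave 67 genes among the 46739 of the table. RNA came from cultures of 4 genotypes, each with 3 samples that the labels call biological replicates: N2, the wild-type laboratory strain; daf-2, mutant in the insulin/IGF-1 receptor gene; spr-4;spr-3, mutant in a pair of genes whose zinc-finger products resemble REST, a repressor of neuronal genes in mammals; and spr-4;spr-3;daf-2, which joins all of these mutations. The spr-4;spr-3 libraries are called double-label libraries below, those labelled spr-4;spr-3;daf-2 triple-label libraries, and both carry the spr label. All worms were grown at 20 °C and collected on day 2, 24 h after the last larval stage (L4), in samples of 100 worms. Each sample is thus a pool of animals. The labels name no allele, no transgene and no treatment.

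UDP-glucuronosyltransferases are phase II detoxification enzymes. They sit in the membrane of the endoplasmic reticulum and join a sugar from a UDP-sugar donor to a fat-soluble acceptor such as a drug or a steroid, which makes the product soluble enough to be exported. In worms the transferred sugar is often glucose, phase I enzymes such as cytochromes P450 prepare many of the acceptors, and the intestine is the main detoxifying tissue. Genes of this kind are known targets of the insulin pathway's transcription factor DAF-16 and of the stress factor SKN-1 in C. elegans. Most single members have no assigned substrate. An exception is ugt-22, which is known to alter the response of worms to the anthelmintic albendazole.

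The libraries held 30837773 to 48894725 counts each. The targeted genes were checked first. spr-3 stood at 18.2, 17.5 and 16.1 CPM (counts per 1000000 counts of the TMM-scaled library) in N2 and at 8.70, 10.1 and 8.84 CPM in the double-label libraries. In the triple-label libraries it stood at 16.3, 17.7 and 15.2 CPM, beside 16.6, 16.7 and 19.2 CPM in daf-2. The spr-3 level was thus lower in the double-label libraries but not in the triple-label ones, so every direction drawn from the latter rests on their label. spr-4 was lower by 0.25 and 0.21 on the log2 scale against N2 and against daf-2. The daf-2 transcript averaged 94.6 CPM in N2 against 86.6 CPM in daf-2, but the level of a transcript does not check a mutation that leaves it in place. The daf-2 libraries also held more ribosomal RNA, 0.150% to 0.181% of counts against 0.0348% to 0.0460% in the others; its part in the results was not tested.

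The family is spread over the genome build WBcel235 mainly on chromosome V, which holds 42 members, followed by chromosome IV with 12, I with 5, X with 4, III with 3 and II with 1. Members less than 10000 bp from the next were counted as a cluster. There were 11 clusters holding 37 members, and the other 30 members stood alone. Merged exons spanned 1542 to 2909 bp (median 1707), in 4 to 11 exons (median 7). Exons of 17 members overlap another gene. For 8 of them the partner is a protein-coding gene on the opposite strand, for example srz-29 across 309 bp of ugt-22, nhr-26 across 340 bp of ugt-50, cft-1 across 121 bp of ugt-48, srd-49 across 98 bp of ugt-47 and C07G3.10 across 72 bp of ugt-64. The kit kept strand but the strand setting of the counting is not given in the sources used here, so the values of these members are uncertain. ugt-40 and ugt-37 share 42 bp on the same strand. How reads matching several members were counted is not given either, and the likeness of member sequences was not analysed here.

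Levels per length spanned a wide range. Over the 12 libraries, 22 members averaged at least 10 CPM per kilobase of exon, 33 lay between 1 and 10, and 12 lay below 1. The highest mean levels were 52.8 CPM per kilobase for ugt-41, 46.2 for ugt-44, 43.3 for ugt-26, 36 for ugt-25 and 34.5 for ugt-62. The tested member with the most counts per length stood 389.5-fold above the one with the fewest. 4 members, ugt-34, ugt-35, ugt-38 and ugt-67, had too few counts to be tested, with no library above 0.266 CPM. For the 55 members averaging at least 1 CPM, the median coefficient of variation was 7.95% in N2, 7.46% in daf-2, 6.53% in double-label libraries and 6.54% in the triple-label libraries.

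The summed level of all 67 members was lowest in N2, at 977 ± 28.7 CPM (SD, n = 3). It was 1151 ± 8.52 CPM in the double-label libraries, 1378 ± 30.02 CPM in daf-2 and 1502 ± 29.2 CPM in the triple-label libraries, and no library of one group reached into the range of another. The family took 0.0983% to 0.103% of all counts in N2, 0.110% to 0.112% in the double-label libraries, 0.133% to 0.143% in daf-2 and 0.149% to 0.156% in the triple-label libraries. The gain from N2 to daf-2 was 401 CPM, a ratio of 1.41. ugt-41 gave 81.5 CPM of it, ugt-44 gave 36.6 and ugt-25 gave 35.5. In whole-worm RNA, more cells of a type and more RNA per cell cannot be told apart.

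**Figure D1:**
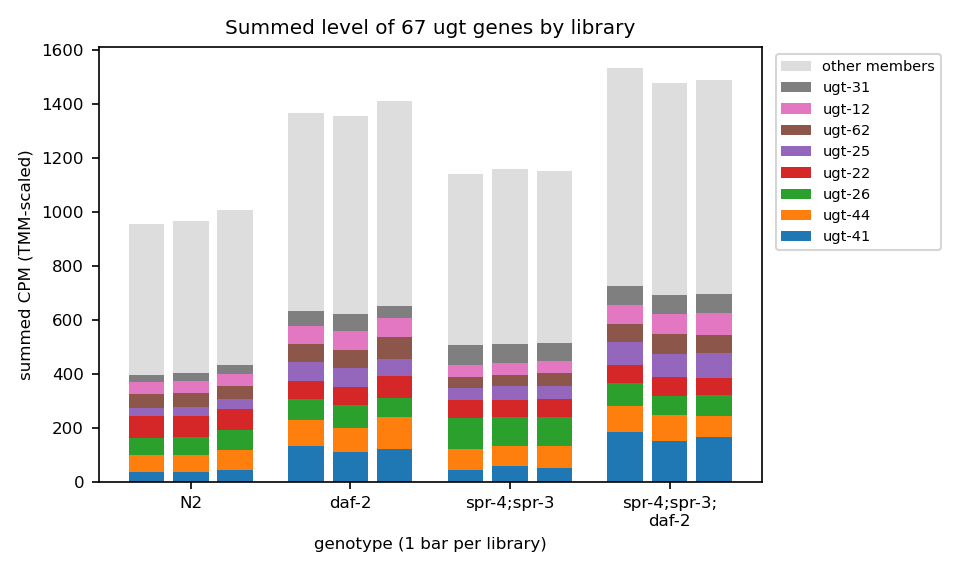
Summed level of the 67 ugt genes in each library, in TMM-scaled CPM (n = 3 libraries per group). Each library is a stacked bar, split into the members with the highest mean CPM and all other members. N2 averaged 977 CPM, the double-label libraries 1151, daf-2 1378 and the triple-label libraries 1502, with no overlap between groups.

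Most ugt genes were higher in daf-2 than in N2. ugt-36 and ugt-27, both below 1 CPM in N2, were 8.15 and 8.23-fold higher in daf-2, and ugt-18, ugt-66, ugt-8, ugt-40, ugt-14 and ugt-41 were 3.09 to 4.87-fold higher. Of the 63 members tested, 40 were called higher and 9 lower in daf-2 (edgeR quasi-likelihood test, Benjamini-Hochberg adjusted p below 0.05 over 15764 genes). Over all genes tested, 27.4% were called higher and 26.9% lower, so the 63.5% of members called higher lay above the share of all genes and the 14.3% called lower lay below it. A difference of more than 2-fold was called upward in 14 members and downward in 2, beside 8.51% and 8.48% of all genes. The median log2 difference was 0.34 over the members and -0.0015 over all genes.

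ugt-36 stood at 0.575, 0.512 and 0.861 CPM in the N2 libraries, 5.21, 4.80 and 5.85 in daf-2, 0.607, 0.967 and 1.02 in double-label and 7.27, 6.22 and 7.88 in triple-label libraries. Both groups with the daf-2 label lay wholly above both groups without it. Its log2 difference was 3.03 ± 0.18 (SE) between daf-2 and N2 (edgeR adjusted p = 9.2e-12) and 3.03 ± 0.17 between the triple-label and double-label libraries, while the double-label libraries did not pass the test against N2 (0.43 ± 0.25, adjusted p = 0.17).

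ugt-27 stood at 0.774, 0.512 and 0.995 CPM in the N2 libraries, 6.19, 6.73 and 6.15 in daf-2, 1.15, 2.05 and 1.58 in double-label and 6.24, 8.11 and 9.10 in triple-label libraries. N2 was lowest, the double-label libraries lay between, and the daf-2 and triple-label libraries overlapped at the top. The log2 difference from N2 was 3.04 ± 0.20 in daf-2 (edgeR adjusted p = 2.5e-10), 1.06 ± 0.25 in the double-label libraries and 3.34 ± 0.20 in the triple-label libraries.

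ugt-41, the member with the highest level per length, stood at 36.8, 35.6 and 44.8 CPM in the N2 libraries, 131, 109.9 and 121 in daf-2, 44.7, 59 and 51.9 in double-label and 184, 152 and 165 in triple-label libraries. The daf-2 and triple-label groups lay apart from each other and above the rest, and the double-label libraries overlapped N2 by 1 library. The log2 difference was 1.63 ± 0.13 for daf-2 against N2 (edgeR adjusted p = 3.4e-06) and 1.69 ± 0.13 for the triple-label against double-label libraries. The smaller rise in the double-label libraries, 0.41 ± 0.13, missed the threshold without any 1 of 5 libraries, N2 replicate 1 or 2, daf-2 replicate 3 or double-label replicate 2 or 3, with adjusted p up to 0.098.

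ugt-66 stood at 5.71, 5.72 and 6.05 CPM in the N2 libraries, 24.1, 20.7 and 19.8 in daf-2, 8.46, 11.7 and 9.20 in double-label and 36.4, 29.2 and 31 in triple-label libraries. All 4 groups were separate, in the order N2, the double-label libraries, daf-2 and triple-label. Against N2 its log2 difference came to 1.89 ± 0.11 in daf-2 and to 2.47 ± 0.11 in the triple-label libraries (edgeR adjusted p = 2.2e-10 and 2.1e-12). Of the others named above, ugt-8 rose from 2.99 to 10.4 CPM, ugt-14 from 2.83 to 8.90 CPM and ugt-40 from 0.641 to 2.16 CPM between N2 and daf-2.

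Fewer members fell in daf-2 than rose. ugt-30 stood at 4.37, 3.85 and 3.69 CPM in the N2 libraries, 1.20, 2.02 and 1.82 in daf-2, 3.24, 2.93 and 2.96 in double-label and 0.792, 0.798 and 1.05 in triple-label libraries. The daf-2 libraries lay wholly below N2 and the triple-label ones below all others. The log2 difference was -1.26 ± 0.16 between daf-2 and N2 (edgeR adjusted p = 8.4e-07). ugt-53, described below, fell by 1.06 on the log2 scale. ugt-65, ugt-46 and ugt-47 fell by 0.66, 0.63 and 0.60, ugt-48 by 0.25 and ugt-9 by 0.23. ugt-57 and ugt-37, which averaged 0.899 and 0.975 CPM over the libraries, fell by 0.77 and 0.74. The call of ugt-48 was lost without N2 replicate 3 (edgeR adjusted p = 0.054) or without daf-2 replicate 3 (0.073). That of ugt-9 was lost without N2 replicate 2 or 3 or any daf-2 library, with adjusted p up to 0.097.

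**Figure D2:**
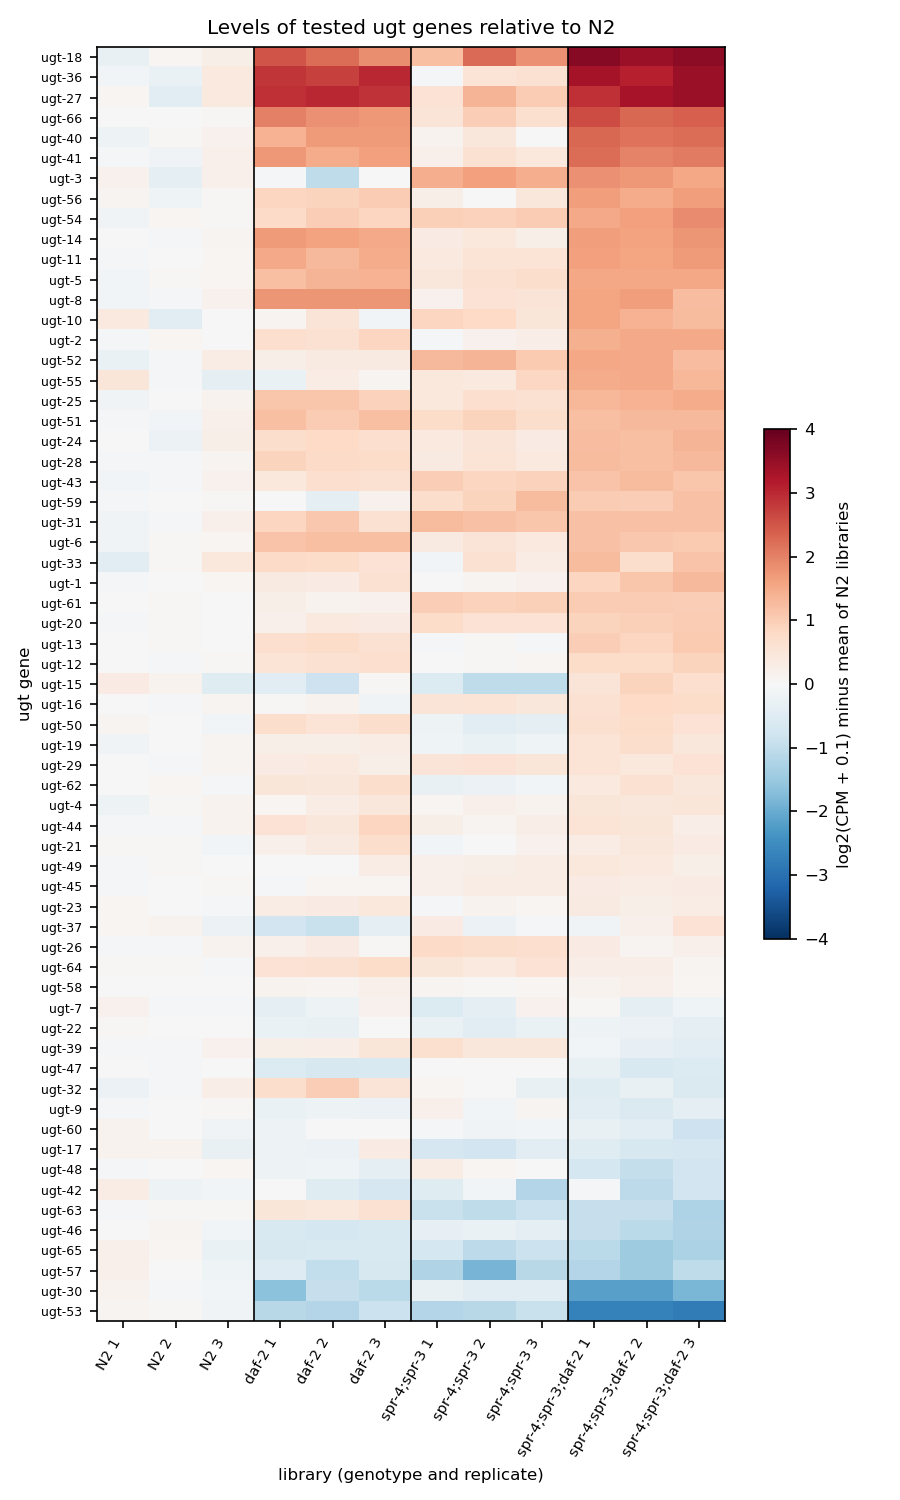
Level of each of the 63 tested ugt genes in each library as log2(CPM + 0.1) minus the mean of the N2 libraries, ordered by the difference of the triple-label libraries from N2. ugt-18, ugt-36 and ugt-27 at the top were over 10-fold higher in the triple-label libraries than in N2, and ugt-30 and ugt-53 at the bottom fell by 2.17 and 2.83 on the log2 scale.

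Fewer members were called between the double-label libraries and N2. 29 members were called higher and 11 lower, beside 24.6% and 21.9% of all genes, and the median log2 difference was 0.27 over the members and 0.018 over all genes. More than 2-fold differences were called upward in 6 members and downward in 3, beside 4.1% and 5.06% of all genes. The highest rise among members averaging at least 1 CPM was that of ugt-18, followed by ugt-52, ugt-31, ugt-27, ugt-54, ugt-61, ugt-43 and ugt-51. ugt-53 and ugt-63 fell most among members at that level, followed by ugt-65, ugt-17, ugt-30, ugt-50, ugt-46 and ugt-22. Among members under 1 CPM, ugt-57 fell further, by 1.53, and ugt-15 by 1.31.

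ugt-18 stood at 1.87, 2.41 and 2.69 CPM in the N2 libraries, 13.5, 11.2 and 8.66 in daf-2, 5.36, 11.5 and 8.36 in double-label and 29.8, 26.1 and 28.5 in triple-label libraries. Each group with a mutation lay wholly above N2, and the triple-label libraries lay above all others. The log2 difference from N2 was 1.89 ± 0.31 in the double-label libraries, 2.29 ± 0.30 in daf-2 and 3.62 ± 0.28, or 12.3-fold, in the triple-label libraries (edgeR adjusted p = 9.1e-04, 1.3e-04 and 1.8e-06). The double-label libraries varied most, with a coefficient of variation of 36.3%.

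ugt-52 and ugt-61 differed mainly with the spr label. ugt-52 stood at 1.88, 2.23 and 2.82 CPM in the N2 libraries, 2.71, 2.93 and 2.93 in daf-2, 5.73, 5.98 and 4.84 in double-label and 6.92, 6.68 and 5.52 in triple-label libraries. The libraries with the spr label lay wholly above those without it, and the daf-2 difference did not pass the test without (0.32 ± 0.15) or with (0.21 ± 0.13) the spr label. The spr difference was 1.27 ± 0.14 without and 1.16 ± 0.13 with the daf-2 label (edgeR adjusted p = 3.7e-07 and 6.7e-07). The daf-2 difference of ugt-61 was small, 0.19 without the spr label, and its spr difference was 0.97 ± 0.074 without and 0.83 ± 0.072 with the daf-2 label. ugt-61 averaged 6.62 ± 0.188 CPM in N2, 7.55 ± 0.202 in daf-2, 13 ± 0.201 in double-label libraries and 13.4 ± 0.189 in the triple-label libraries (SD, n = 3), again with no overlap between libraries with and without the spr label.

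ugt-31 stood at 27.8, 30.02 and 35.2 CPM in the N2 libraries, 55.5, 65.2 and 47.6 in daf-2, 74.3, 70.1 and 66.6 in double-label and 69.4, 69.9 and 69.2 in triple-label libraries. N2 was lowest, daf-2 lay between, and the double- and triple-label libraries overlapped. The log2 difference from N2 was 0.86 ± 0.11 in daf-2, 1.18 ± 0.11 in double-label libraries and 1.17 ± 0.11 in the triple-label libraries, so the gains of the separate groups did not add up on the log scale (interaction -0.87 ± 0.15, edgeR adjusted p = 0.0019).

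ugt-22, the albendazole-related member, was the most abundant in counts in N2. It stood at 81.5, 79.5 and 78 CPM in the N2 libraries, 65.7, 64.7 and 80.9 in daf-2, 65.9, 59.7 and 66.4 in double-label and 68.8, 68.1 and 61.9 in triple-label libraries. The double- and triple-label libraries lay below N2, and daf-2 overlapped it with replicate 3. The log2 difference was -0.32 ± 0.074 in the double-label libraries (edgeR adjusted p = 0.003) and -0.27 ± 0.073 in the triple-label libraries, and -0.18 ± 0.073 in daf-2 did not pass the test. The fall of ugt-30 in the double-label libraries, -0.39 ± 0.15, lost its call under DESeq2 and without N2 replicate 1 or 2 or double-label replicate 2 or 3, with adjusted p up to 0.16.

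Against N2, more members were called in the triple-label libraries than in daf-2 or the double-label libraries. 46 members were called higher and 14 lower, leaving 3, ugt-7, ugt-37 and ugt-42, uncalled, beside 35.4% of all genes called higher and 33.3% lower. More than 2-fold rises were called in 28 members and falls in 6, beside 13.9% and 7.66% of all genes. The median log2 difference was 0.77 over the members and 0.020 over all genes. In 29 members, 46% of those tested, N2 had the lowest group mean and the triple-label libraries the highest, beside 21.7% of all genes tested.

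Set against daf-2, the triple-label libraries had 32 members higher and 12 lower, beside 26.1% and 20.9% of all genes. The median log2 difference was 0.21 over the members and 0.019 over all genes. More than 2-fold differences were called upward in 7 members and downward in 3, beside 7.67% and 1.8% of all genes. Among members averaging at least 1 CPM, ugt-55, ugt-18, ugt-52, ugt-54, ugt-61, ugt-2, ugt-16 and ugt-1 rose most, from 1.44 down to 0.66 on the log2 scale. Members under 1 CPM made up 4 of the 7 rises over 2-fold, which were 5.67-fold for ugt-3, 2.63-fold for ugt-10, 2.49-fold for ugt-15 and 2.30-fold for ugt-59. ugt-53, ugt-63, ugt-32 and ugt-30 fell most, by 1.77, 1.54, 1.23 and 0.92. Set against the double-label libraries, 34 members were higher and 12 lower, beside 25.8% and 23.5% of all genes, with a median of 0.26 over the members and 0.0078 over all genes. Rises of more than 2-fold were called in 12 members and falls in 2, beside 7.35% and 2.96% of all genes. ugt-36, ugt-27 and ugt-40 rose most there, by 3.03, 2.28 and 2.17, followed by ugt-15 at under 1 CPM, by 2.08.

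ugt-53 fell furthest from N2 among the tested members in the triple-label libraries. It stood at 10.4, 10.1 and 8.74 CPM in the N2 libraries, 4.50, 4.27 and 5.27 in daf-2, 4.25, 4.46 and 5.25 in double-label and 1.40, 1.41 and 1.32 in triple-label libraries. daf-2 and the double-label libraries overlapped each other at a level below N2, and the triple-label libraries lay below all others. The log2 difference from N2 was -1.06 ± 0.11 in daf-2, -1.07 ± 0.11 in double-label libraries and -2.83 ± 0.13 in the triple-label libraries (edgeR adjusted p = 2.8e-08, 9.5e-08 and 3.7e-14).

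ugt-63 stood at 34, 36.9 and 37.3 CPM in the N2 libraries, 50.7, 48.8 and 54.7 in daf-2, 19.3, 17.9 and 19.6 in double-label and 19, 18.8 and 15.2 in triple-label libraries. daf-2 was highest, N2 lay below it, and the double- and triple-label libraries lay lower still, with overlap between them. The log2 difference was 0.51 ± 0.068 for daf-2 against N2 and -1.54 ± 0.072 for the triple-label libraries against daf-2 (edgeR adjusted p = 1.7e-06 and 9.9e-13).

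**Figure D3:**
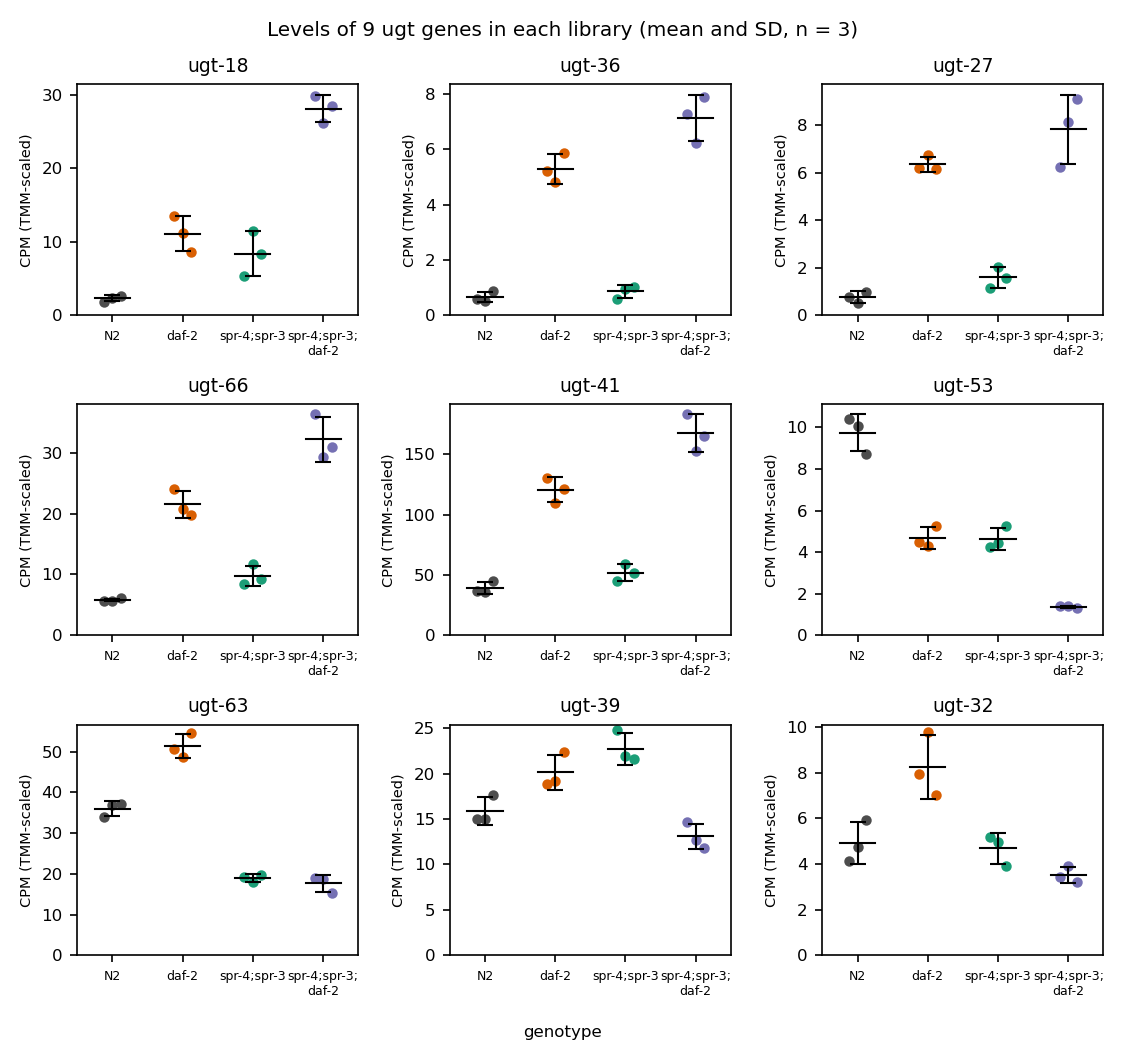
Levels of 9 ugt genes in each library in CPM, with points for libraries and bars for group means and SD (n = 3). ugt-18, ugt-36, ugt-27, ugt-66 and ugt-41 were highest in the triple-label libraries, ugt-53 was lowest there, ugt-63 and ugt-32 were highest in daf-2, and ugt-39 was highest in the double-label libraries.

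The daf-2 difference was measured once without the spr label and once with it, in libraries that do not overlap. 30 members were called higher in both, 47.6% of those tested beside 17.6% of all genes tested. 7 were called lower in both, 11.1% beside 12.5%, namely ugt-9, ugt-30, ugt-46, ugt-47, ugt-48, ugt-53 and ugt-65. Both calls held with each single library left out in 24 of the 30, the exceptions being ugt-4, ugt-19, ugt-20, ugt-21, ugt-33 and ugt-43, and in 4 of the 7, the exceptions being ugt-9, ugt-48 and ugt-65. With the spr label, the call of ugt-65 was lost without double-label replicate 1 or 3 or triple-label replicate 2 or 3, with adjusted p up to 0.15. The log2 differences of the 63 members had a Pearson correlation of 0.774 and a Spearman correlation of 0.7 between the pairs of groups, given as a description. 4 members, ugt-26, ugt-32, ugt-39 and ugt-64, were called higher without the spr label and lower with it, 6.35% of the members beside 1.35% of all genes, and none went the other way, beside 0.99%. With each single library left out, both calls held for ugt-39 and ugt-64 but not for ugt-26 and ugt-32. The interaction itself, which is the daf-2 difference with the spr label minus that without it, was called positive in 9 members and negative in 14, beside 14.1% and 14.6% of all genes. Interactions above 2-fold were called positive in 1 member and negative in 2, beside 6.74% and 2.35% of all genes. The positive count fell to 5 without N2 replicate 1 or without double-label replicate 2, beside 11.1% and 12.1% of all genes. With scaling by total counts alone the split was 12 positive to 11 negative, beside 23% and 6.69% of all genes. The median of all genes then moved from 0.0055 to 0.13.

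ugt-39 stood at 15, 15 and 17.7 CPM in the N2 libraries, 18.8, 19.2 and 22.4 in daf-2, 24.8, 21.9 and 21.6 in double-label and 14.6, 12.7 and 11.9 in triple-label libraries. daf-2 and the double-label libraries lay above N2, and the triple-label libraries below it. The interaction was -1.14 ± 0.13 (edgeR adjusted p = 1.7e-06), with a daf-2 difference of 0.34 ± 0.089 without the spr label and -0.79 ± 0.091 with it. The fall against N2 in the triple-label libraries, -0.28 ± 0.092, lost its call without N2 replicate 3 or triple-label replicate 3.

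ugt-32 stood at 4.11, 4.76 and 5.92 CPM in the N2 libraries, 7.92, 9.77 and 7.01 in daf-2, 5.19, 4.95 and 3.91 in double-label and 3.45, 3.91 and 3.20 in triple-label libraries. daf-2 lay wholly above all other groups and the triple-label libraries were lowest, touching the range of the double-label libraries. The interaction was -1.16 ± 0.21 (edgeR adjusted p = 4.4e-04). Its daf-2 difference with the spr label, -0.41 ± 0.16, missed the threshold under limma-voom, scaling by total counts and 6 of the 12 single libraries left out, with adjusted p up to 0.15.

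ugt-64 stood at 25.5, 25.1 and 23 CPM in the N2 libraries, 36.5, 37.6 and 40.5 in daf-2, 34.5, 32 and 36.3 in double-label and 29.4, 29.4 and 26.7 in triple-label libraries. daf-2 and the double-label libraries lay above N2, and the triple-label libraries lay between these levels. The interaction was -0.90 ± 0.088 (edgeR adjusted p = 2.0e-07). ugt-26 averaged 67.6 ± 5.90 CPM in N2, 77.2 ± 7.54 in daf-2, 111 ± 4.2 in double-label libraries and 78.5 ± 5.70 in the triple-label libraries, highest in the double-label libraries, with an interaction of -0.69 ± 0.11 (adjusted p = 3.8e-04). Its daf-2 difference without the spr label was 0.19 ± 0.076 with an adjusted p of 0.047, the groups overlapped, and the call was lost under 9 of the alternatives tried besides the test against a 1.5-fold change.

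The positive interactions were led by ugt-55, ugt-2, ugt-1, ugt-19, ugt-50 and ugt-13 among members averaging at least 1 CPM. ugt-2 stood at 6.83, 7.68 and 7.21 CPM in the N2 libraries, 11.6, 11.2 and 13.3 in daf-2, 6.95, 8.15 and 8.75 in double-label and 19.6, 21 and 20.7 in triple-label libraries. daf-2 lay above N2 and the double-label libraries, which overlapped, and the triple-label libraries were highest. Its interaction was 0.62 ± 0.13 (edgeR adjusted p = 9.3e-04), and its neighbour ugt-1 had 0.56 ± 0.14. That of ugt-55, 0.93 ± 0.30, lost its call without N2 replicate 1, daf-2 replicate 1 or double-label replicate 1 or 2, and that of ugt-50, 0.34 ± 0.12, in 6 of the 12 libraries left out. ugt-15, singled out after its values were seen because it averages under 1 CPM, had the only positive interaction above 2-fold, 2.63 ± 0.56 (adjusted p = 0.0014), at 0.354 ± 0.125 CPM in N2, 0.245 ± 0.107 in daf-2, 0.146 ± 0.0485 in double-label libraries and 0.621 ± 0.0918 in the triple-label libraries.

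**Figure D4:**
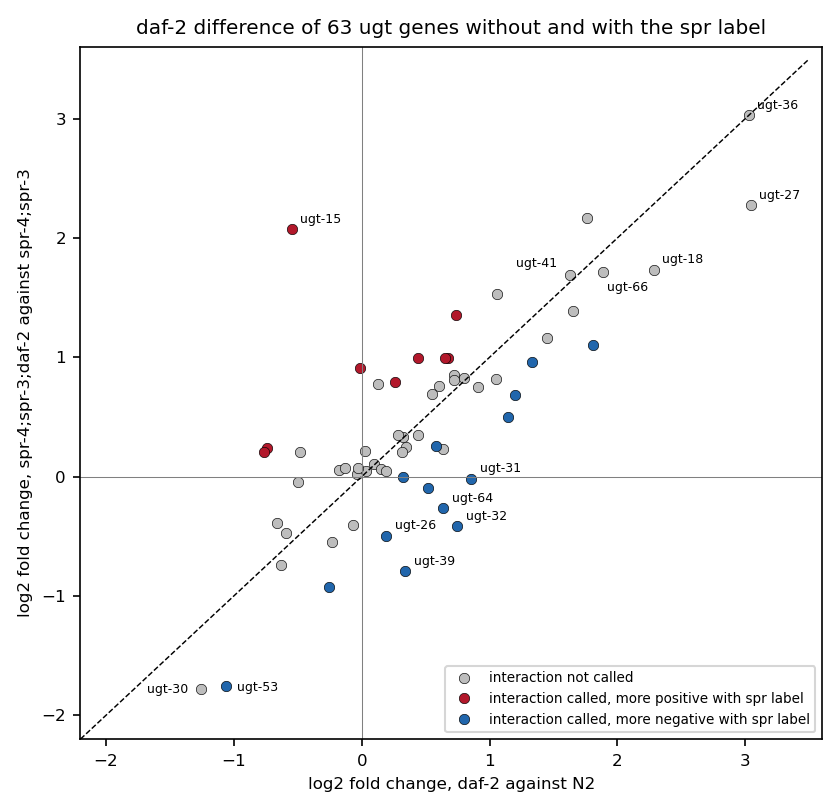
log2 fold change of 63 ugt genes for daf-2 against N2 (horizontal axis) and for triple-label against double-label libraries (vertical axis), which share no library; the dashed line marks equal values and colours mark a called interaction. ugt-36 lies on the line at 3.03, ugt-26, ugt-32, ugt-39 and ugt-64 lie right of 0 and below it, and ugt-15 lies left of 0 and above it.

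The spr difference was likewise measured without and with the daf-2 label. 21 members were called higher in both, 33.3% of those tested beside 12.8% of all genes tested. 6 were called lower in both, 9.52% beside 8.68%, namely ugt-17, ugt-30, ugt-46, ugt-53, ugt-63 and ugt-65. Of the 21, ugt-5, ugt-10, ugt-11, ugt-29, ugt-31, ugt-41 and ugt-49 lost 1 of these calls in at least 1 fit with a single library left out, as did ugt-30 of the 6. ugt-39 and ugt-64 were called higher without the daf-2 label and lower with it, and ugt-15 the reverse, its fall being lost without N2 replicate 1 or double-label replicate 2 or 3. These were 3.17% and 1.59% of the members, beside 2.21% and 3.25% of all genes. The correlation over the 63 members was 0.63 by Pearson and 0.605 by Spearman.

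Members in clusters and members standing alone are given side by side, with no test between them. Of the 33 clustered members tested, 24 were called higher in daf-2 than in N2, 12 of them over 2-fold, with a median log2 difference of 0.61. Of the 30 single members, 16 were called higher, 2 of them over 2-fold, with a median of 0.26. The shares called higher were 72.7% of clustered and 53.3% of single members, beside 27.4% of all genes. Rises over 2-fold were called in 8.51% of all genes. In the triple-label libraries against N2, 28 clustered and 18 single members were called higher, 84.8% and 60% beside 35.4% of all genes. The 6 members called lower by more than 2-fold there were all single, beside 7.66% of all genes called lower to that degree. Clustered members share a chromosome segment and may share reads.

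The cluster on chromosome V from 4887165 to 4911399 holds 8 members. Of the 7 tested, ugt-12, ugt-11, ugt-8, ugt-14 and ugt-13 rose in daf-2, by 0.61, 1.45, 1.81, 1.65 and 0.67 on the log2 scale, ugt-9 fell by 0.23, and ugt-10 had 0.13 and no call. The cluster on chromosome V from 7139475 to 7169281 held both directions: ugt-40, ugt-41, ugt-36 and ugt-39 rose in daf-2, and ugt-37 fell by 0.74 at about 1 CPM, a call lost without N2 replicate 1 or 2 or daf-2 replicate 1 or 2. On chromosome I from 4721131 to 4735276, ugt-26, ugt-27, ugt-28 and ugt-25 lie on the same strand. ugt-25 averaged 33.2 ± 3.06 CPM in N2, 68.7 ± 5.13 in daf-2, 49.6 ± 4.34 in double-label libraries and 87.7 ± 4.12 in the triple-label libraries, and ugt-28 averaged 23.9, 41.6, 32.3 and 57.2 CPM in that order; for both, all 4 groups were separate. On chromosome V from 12790676 to 12800271, ugt-5 and ugt-6 rose by 1.33 and 1.20 in daf-2 and their neighbour ugt-4 by 0.28, a call lost without N2 replicate 1 or daf-2 replicate 3. ugt-3, from the same cluster but under 1 CPM in all but 1 library, rose by 1.82 in the double-label libraries and had -0.49 and no call in daf-2.

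**Figure D5:**
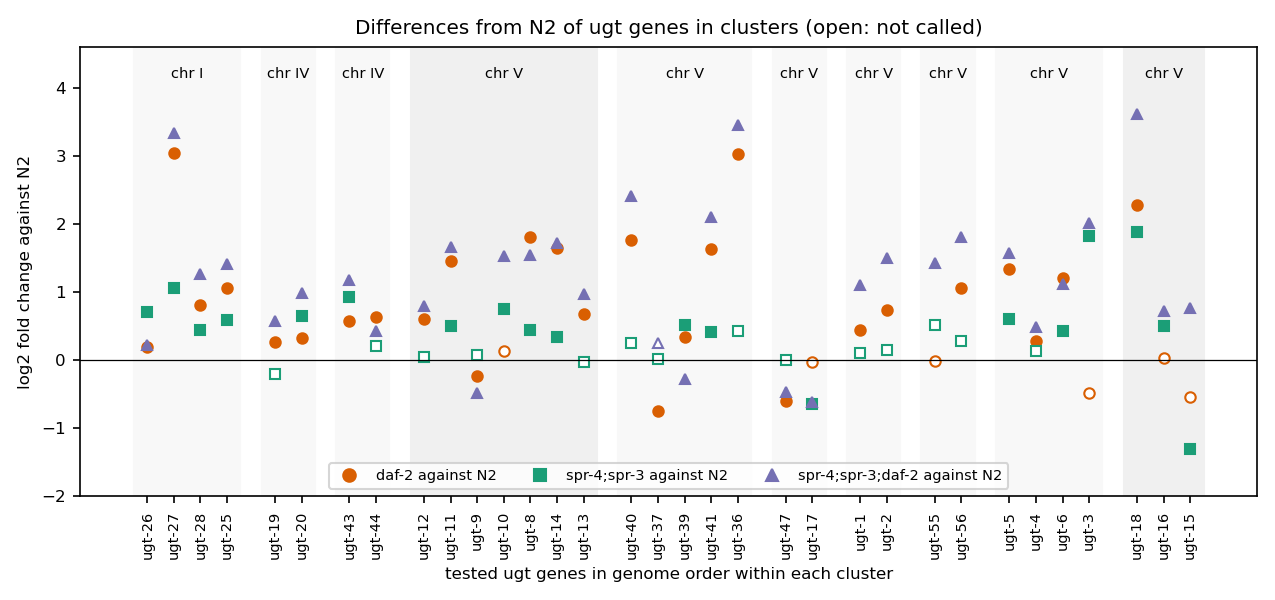
log2 fold change against N2 of the 33 tested ugt genes that lie in clusters, in genome order within each shaded cluster; circles are daf-2, squares the double-label libraries and triangles triple-label libraries, and open symbols did not pass the test. ugt-27, ugt-36 and ugt-18 reach 3.34, 3.46 and 3.62 in the triple-label libraries, while neighbours such as ugt-26, ugt-39 and ugt-16 stay below 1.

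Other detoxification genes were counted in lists that hold every gene of a name class. Of 69 cytochrome P450 genes tested, which carry out phase I oxidation, 42 were called higher and 5 lower in daf-2 against N2, with a median log2 difference of 0.47. Of 39 glutathione S-transferase genes, which join glutathione to reactive compounds, 25 were higher and 3 lower, with a median of 0.53. Of 30 short-chain dehydrogenase (dhs) genes 20 were higher and 4 lower, and of 22 ABC exporter genes of the pgp and mrp classes 11 were higher and 5 lower. Over all genes tested, 27.4% were called higher and 26.9% lower in this comparison. The ABC exporter shares were 50% higher and 22.7% lower, the latter near that of all genes. The ugt share called higher, 63.5%, lay beside 60.9% of P450 genes, 64.1% of glutathione S-transferase genes and 66.7% of dhs genes. In triple-label against daf-2 libraries, 42% of P450 genes were higher and 17.4% lower, beside 50.8% and 19% of ugt genes. Of the glutathione S-transferase genes 25.6% were higher and 17.9% lower, near the shares of all genes, 26.1% and 20.9%.

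Of 7 genes that make, use or transport UDP-sugars, 2 were called lower and the others not called in daf-2 against N2. The share, 28.6%, lay near the 26.9% of all genes called lower. The counts were the same in the double-label libraries, and 5 were lower and 1 higher in the triple-label libraries, 71.4% lower beside 33.3% of all genes. gale-1, the UDP-galactose 4-epimerase gene, fell by 0.61 in daf-2 and 0.85 in the triple-label libraries. sqv-4, which encodes the UDP-glucose dehydrogenase that makes UDP-glucuronic acid, had a log2 difference of 0.00 in daf-2 and fell by 0.19 in the triple-label libraries. Of 14 genes for regulators of detoxification, 5 were higher and 3 lower in daf-2, 35.7% and 21.4% beside 27.4% and 26.9% of all genes, which at 14 genes is near the background. pqm-1, a zinc-finger factor that opposes DAF-16 in daf-2 mutants, rose by 0.93 in daf-2 and 1.12 in the triple-label libraries. In triple-label against daf-2 libraries, 5 of the 14 were higher and none lower, 35.7% and 0% beside 26.1% and 20.9% of all genes. Among them ahr-1, the aryl hydrocarbon receptor gene, rose by 1.08 at a low level, from a mean of 0.668 CPM in daf-2 to 1.42 CPM.

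Tissue markers moved between the groups as well. The summed level of 10 intestine markers was 981 to 1047 CPM in N2 and 734 to 777 in daf-2. It was 829 to 889 in double-label libraries and 664 to 783 in the triple-label libraries. Each group with a mutation lay below N2 in this sum. Most of it was act-5, at a mean of 381 CPM in N2 and 314 CPM in daf-2, and vha-6, at 217 and 143 CPM. The daf-2 and triple-label ranges of the intestine sum overlapped. In daf-2 against N2, 7 of the 10 fell, among them pept-1 by 2.17 and nhx-2 by 1.72, and 2 rose, among them ges-1 by 1.24. These were 70% and 20%, beside 26.9% and 27.4% of all genes called lower and higher. The sum of 9 neuron markers was 269 to 273 CPM in N2, 319 to 334 in daf-2, 287 to 318 in double-label libraries and 369 to 391 in the triple-label libraries. Between N2 and daf-2, however, 3 of the 9 were higher and 2 lower, with a median log2 difference of -0.086. These were 33.3% and 22.2%, near the 27.4% and 26.9% of all genes. Most of the sum was snb-1, at a mean of 148 CPM in N2 and 180 CPM in daf-2, and egl-3, at 53.8 and 77.8 CPM, while rab-3 and rgef-1 fell by 0.85 and 0.53 on the log2 scale. In triple-label against daf-2 libraries all 9 neuron markers were called higher, beside 26.1% of all genes, with a median of 0.41. Sperm markers (10 genes) summed to 40.7 to 58.7 CPM in N2, 30.2 to 32.9 in the double-label libraries, 24.7 to 28.5 in the triple-label libraries and 7.17 to 9.53 in daf-2. Against N2, 7 of these sperm markers were called lower and none higher in daf-2, beside 26.9% and 27.4% of all genes. In the double-label libraries 6 were lower and 2 higher, beside 21.9% and 24.6% of all genes. In the triple-label libraries 5 were lower and 4 higher, beside 33.3% and 35.4%. Oocyte markers (10 genes) summed to 7136 to 7228 CPM in N2, 7052 to 7284 in the double-label libraries, 6685 to 7071 in daf-2 and 5333 to 5698 in the triple-label libraries. The 6 epidermis markers summed to 1081 to 1150 CPM in N2, 1299 to 1460 in the double-label libraries, 777 to 848 in the triple-label libraries and 727 to 842 in daf-2. This sum was mostly col-19, at a mean of 962 CPM in N2 and 1225 CPM in the double-label libraries. Between these groups 2 of the 6 epidermis markers were higher and 2 lower, dpy-7 by 3.06 and nhr-25 by 0.97 on the log2 scale. Each count was 33.3% of the list, beside 24.6% and 21.9% of all genes. The 8 muscle markers summed to between 3465 and 4610 CPM over all libraries. No marker was at 0. The part of tissue makeup in the ugt differences was not tested.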

How the data were processed

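RNA of 12 whole-worm samples was sequenced as stranded mRNA libraries from 500 ng of total RNA in 75 bp read pairs, per the labels' protocols. The authors deposited raw counts per gene, as whole numbers. Per the submitters' processing notes, the tools were STAR and featureCounts 1.5.1 and the build was WBcel235. No source used here gives the strand setting or the treatment of multiply matching reads. Names and positions came from an annotation of WBcel235.

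Genes were kept by filterByExpr (minimum count 10), which left 15764 of 46739 and 63 of 67 ugt genes, scaled by TMM, and fitted over all 12 libraries in one robust quasi-likelihood model of edgeR 4.0.16 in R 4.3.3, with 8 residual degrees of freedom. The 5 pairwise comparisons and the interaction were tested two-sided, with Benjamini-Hochberg adjustment over all genes tested and a threshold of 0.05. Standard errors were obtained as the size of the log2 difference over the root of F. The script was tested on simulated data. Counts of replicate libraries varied beyond Poisson noise, with a chi-square statistic of 3.62 to 18.1 for each degree of freedom. Genes described are up to 8 called members per direction by size (6 for the interaction) averaging at least 1 CPM, the 5 with the highest CPM per kilobase, and called members of clusters; other names are those a small count refers to. Members and lists were chosen with earlier results of these data known. Alternatives used DESeq2 1.42.0, limma 3.58.1, other scalings and filters, a replicate block, a test against a 1.5-fold change, and each library left out.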

Additional observations from a re-analysis of the deposited data

Results flagged for a closer look

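The daf-2 difference with the spr label was tested against that without it (edgeR, adjusted over all genes). This interaction was called positive in 9 members and negative in 14. These were 14.3% and 22.2% of those tested, beside 14.1% and 14.6% of all genes. Listed here are the 6 largest called values of each sign among members averaging at least 1 CPM. Each value is the log2 daf-2 difference with the spr label minus that without it. The positive values were 0.93 for ugt-55, 0.62 for ugt-2, 0.56 for ugt-1, 0.53 for ugt-19, 0.34 for ugt-50 and 0.32 for ugt-13. The calls of ugt-55 and ugt-50 did not hold with every single library left out. ugt-1 and ugt-2 are neighbours on chromosome V. The negative values were -1.16 for ugt-32, -1.14 for ugt-39, -0.90 for ugt-64, -0.87 for ugt-31, -0.71 for ugt-8 and -0.70 for ugt-53. ugt-50 and ugt-64 overlap a protein-coding gene on the opposite strand, and the strand setting of the counting is not stated. All of these values use the triple-label libraries, in which the spr-3 transcript was not lower than in daf-2.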

How the results depend on the processing

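Every called difference of a tested ugt gene, 262 over the 5 comparisons and the interaction, was recomputed under 9 other settings and with each of the 12 libraries left out, where the setting applied. None changed direction. The test against a 1.5-fold change, which asks for more, ended 155 of the calls; apart from it, 216 calls held throughout and 46 were lost under at least 1 alternative. Under that test the counts of members higher and lower were 17 and 2 for daf-2 against N2 (beside 9.61% and 8.21% of all genes), 8 and 4 for the double-label libraries against N2 (3.73% and 3.47%), 31 and 7 for triple-label against N2 (16.6% and 7.77%), 7 and 3 for triple-label against daf-2 (6.26% and 1.45%), 20 and 4 for triple-label against the double-label libraries (7.19% and 2.61%), and 1 and 3 for the interaction (4.68% and 1.48%). Leaving out 1 library gave 5 to 10 positive interactions, beside 11.1% to 14.3% of all genes. There were 5 without N2 replicate 1 (11.1% of all genes) or without double-label replicate 2 (12.1%). Members higher in daf-2 than in N2 numbered 34 to 40, beside 24.1% to 28.4% of all genes. With scaling by total counts alone, 35% of all called genes were higher in the double-label libraries than in N2. The share was 68.1% in triple-label against double-label libraries and 77.5% for the interaction. The interaction then had 12 positive and 11 negative ugt genes, beside 23% and 6.69% of all genes tested. Libraries with the same replicate number were not more alike across groups (median correlation 0.0038 over 18 pairs, from -0.216 to 0.114). No pairing by number was thus seen, but 3 libraries per group are too few to exclude it. With a replicate block 38 members were higher and 9 lower for daf-2 against N2, beside 26.9% and 26.3% of all genes. The interaction then had 9 positive and 15 negative members, beside 13.6% and 13.8% of all genes. Depth limits the members under 1 CPM. The p-values rest on the spread of pooled samples within groups, 3 per group, estimated in one fit over all 12 libraries.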
